A study of Rattus norvegicus with 8 samples.

Results

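Pou3f1, Bcl11b and Ldb2 encode transcription regulators, and they were chosen by a measured value, a higher signal in CA1 than in CA3 control cultures of the rat hippocampus. All probe sets that carry one of these names as their only gene symbol were taken, which gave 5 of the 31099 probe sets on the array and 3 of 14218 named genes. Pou3f1 and Ldb2 have 1 probe set each and Bcl11b has 3. CA1 and CA3 are fields of pyramidal cells in the hippocampus, and both were dissected from rat slice cultures, thin explants of hippocampus kept in a dish. Total RNA was measured on 8 expression arrays, each from 15 cultures at 7 days, with 1 CA1 lesion array, 3 CA1 control arrays, 1 CA3 lesion array and 3 CA3 control arrays. The labels give no strain, age, kind of lesion or event from which the days were counted, and nothing in them says that the arrays came from separate animals, so the p-values below speak of the spread among these arrays alone, and that spread may be technical.

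As background, pyramidal cell fields of the hippocampus share most of their genes and are told apart by small sets of transcription factors, adhesion molecules and receptors. Pou3f1 (also called Oct-6, SCIP or Tst-1) encodes a POU-domain protein that binds octamer-like DNA, known from mouse as a marker of CA1 pyramidal neurons and, in peripheral nerve, as a regulator of myelinating Schwann cells. Bcl11b (Ctip2) encodes a zinc-finger protein that recruits chromatin-modifying complexes and is known in mouse from deep-layer cortical projection neurons, CA1 pyramidal cells and dentate granule cells. Ldb2 encodes a LIM-domain-binding cofactor, which does not bind DNA itself and bridges LIM-homeodomain and LMO proteins into larger complexes.

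The deposited values are linear signal intensities, in arbitrary units, and every array has nearly the same 2% trimmed mean (2501). They were used as log2(intensity + 16), so fold changes are on that scale and understate the change of dim probe sets. Median intensity ran from 561 to 815 over the 8 arrays, and any pair of arrays had a Pearson correlation of 0.857 to 0.931 across the log2 values (probe sets are not independent replicates). For Gapdh, the ratio of 3' to 5' control signal, a measure of RNA integrity that is higher in degraded RNA, was 4.65 in the CA1 lesion array and 3.71 to 5.0 in CA1 controls. It was 5.23 in the CA3 lesion array and 3.75 to 3.93 in CA3 controls. The part of RNA quality in the differences below was not tested. Control 3 of each field stood apart in its summed microglial signal, which was 102482 in CA1 and 85251 in CA3, whereas controls 1 and 2 reached at most 17485 in CA1 and 13029 in CA3. Lesion effects and field differences of the genes were therefore also computed without control 3 of both fields, a choice made after seeing the data.

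Pou3f1 had the largest CA1 minus CA3 control difference of all 18625 probe sets tested. Its signal was 4719 in the CA1 lesion array and 12888, 5139 and 3972 in CA1 controls 1 to 3. It was 633 in the CA3 lesion array and 236, 320 and 243 in CA3 controls 1 to 3. Every CA1 array therefore lay above every CA3 array, with a gap of 2.62 log2 units between the lowest CA1 array and the highest CA3 array. On the log2 scale the controls averaged 12.65 ± 0.89 in CA1 and 8.13 ± 0.23 in CA3 (SD, n = 3 each), a difference of 4.52 or 23.0-fold. CA1 control 1 stood well above the other two CA1 controls, and the difference was 4.02 without it.

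Bcl11b was read by 3 probe sets that did not behave alike. Probe set 1384944_at had a signal of 20624 in the CA1 lesion array and 34891, 22485 and 19118 in CA1 controls 1 to 3. It had 3071 in the CA3 lesion array and 5728, 6326 and 3268 in CA3 controls 1 to 3, so that CA3 kept a clear signal while all CA1 arrays were higher. The control means were 14.59 ± 0.45 in CA1 and 12.27 ± 0.51 in CA3 (log2, SD, n = 3 each), a 5.01-fold difference.

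Probe set 1391948_at gave a signal of 2391 in the CA1 lesion array and 2495, 4870 and 3393 in CA1 controls 1 to 3. In CA3 it was 611 in the lesion array and 193, 812 and 416 in controls 1 to 3. Here too the fields did not overlap, but the order among CA1 controls was turned round: control 1 was the highest of them by 1384944_at and the lowest by 1391948_at. The control means were 11.76 ± 0.48 in CA1 and 8.72 ± 0.99 in CA3 (log2, SD, n = 3 each), an 8.24-fold difference.

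The third Bcl11b probe set, 1378520_at, was dim and did not separate the fields. Its signal was 179 in the CA1 lesion array and 264, 50.5 and 47.4 in CA1 controls, and 163 in the CA3 lesion array and 133, 48.8 and 49.1 in CA3 controls. It lay under the filter on low values (the 40th percentile of mean log2 signal), so 4 of the 5 probe sets were tested. With no filter its control difference between CA1 and CA3 was 0.30 ± 0.91 (log2, SE).

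Ldb2 varied least among CA1 arrays. Its signal was 2949 in the CA1 lesion array and 2805, 1991 and 2943 in CA1 controls 1 to 3. It was 422 in the CA3 lesion array and 283, 429 and 270 in CA3 controls 1 to 3. The control means were 11.32 ± 0.31 in CA1 and 8.39 ± 0.35 in CA3 (log2, SD, n = 3 each), a 7.61-fold difference, and the lowest CA1 array lay 2.17 log2 units above the highest CA3 array.

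**Figure D1:**
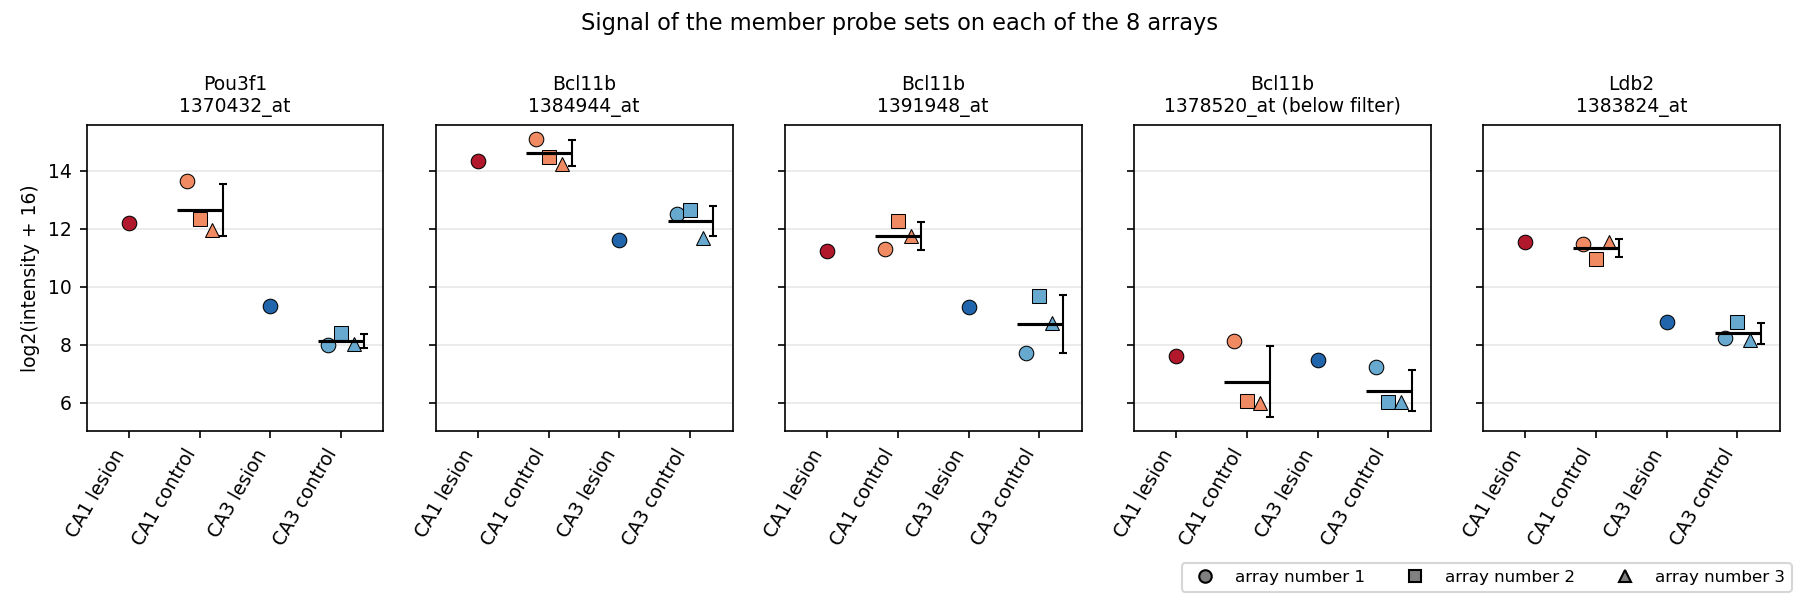
Signal of the 5 probe sets on the 8 arrays, as log2(intensity + 16). Points are single arrays, shaped by the array number in the labels, bars are means and whiskers SD of the 3 controls of a field. All CA1 arrays lie above all CA3 arrays for 4 probe sets, and the dim Bcl11b probe set 1378520_at overlaps.

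The control arrays chose these genes, so their control differences are given as a description with no test. For scale, limma called 0.526% of the tested probe sets between CA1 and CA3 controls, with 0.242% higher in CA1 and 0.285% lower in CA1. The 98 calls became 0 without the intensity trend of the variance model, 47 or 27 when CA1 control 1 or 2 was left out, and 29 or 24 when CA3 control 1 or 2 was left out. The CA1 controls lay above all CA3 controls for 8.85% of probe sets, and all 4 CA1 arrays above all 4 CA3 arrays for 3.5%. Numbered alike, CA1 control 1, 2 and 3 exceeded the CA3 control of the same number by 5.68, 3.94 and 3.94 log2 units for Pou3f1. These differences were 2.60, 1.83 and 2.54 for Bcl11b 1384944_at, 3.59, 2.56 and 2.98 for 1391948_at, and 3.24, 2.17 and 3.37 for Ldb2. Number 2 had the smallest difference for Ldb2 and for both Bcl11b probe sets. Without control 3 of both fields, the control difference was 4.81 for Pou3f1, 2.22 and 3.07 for Bcl11b 1384944_at and 1391948_at, and 2.71 for Ldb2.

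The lesion arrays are not among the arrays that chose the genes, and in them too the genes had higher values in CA1, though not past the threshold. Pou3f1 was 7.29-fold higher in the CA1 lesion array than in the CA3 lesion array, Ldb2 6.77-fold, Bcl11b 6.69-fold by 1384944_at and 3.84-fold by 1391948_at. The fifth probe set, Bcl11b 1378520_at, was under the filter and 1.09-fold higher. Thus 4 of the 5 were at least 2-fold higher, as were 6.87% of all probe sets tested. The filter used the mean of all arrays, to which the high CA1 signal of these genes contributed, so this count is a description only. The log2 difference was 2.87 ± 0.73 for Pou3f1 (SE, limma adjusted p = 0.389), 2.76 ± 0.62 for Ldb2 (adjusted p = 0.335), 2.74 ± 0.50 for Bcl11b 1384944_at (adjusted p = 0.246) and 1.94 ± 0.85 for 1391948_at (adjusted p = 0.959). Without control 3 of both fields, which changes only the spread, 1384944_at passed (adjusted p = 0.0305) and the adjusted p of the other 3 probe sets was 0.246 to 0.925. With 1 lesion array per field, these errors come from the controls, and lesion arrays are assumed to vary like them; the controls that chose the genes thus still set the spread.

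In the contrast of the lesion arrays 0 of 18625 probe sets passed in limma (0%). An unadjusted p under 0.05 was reached by 943 (5.06%), of which 509 (2.73% of those tested) were higher in CA1. The unadjusted 95% intervals of the 4 differences ran from 1.24 to 4.49 for Pou3f1, from 1.37 to 4.14 for Ldb2, from 1.63 to 3.86 for Bcl11b 1384944_at and from 0.06 to 3.82 for 1391948_at. Most probe sets called higher in CA1 controls kept their direction in the lesion arrays. Of these 45, 44 were higher in the CA1 than in the CA3 lesion array, against 9212 of all 18625 tested. The median difference of the 45 was 1.56 in the lesion arrays and 1.96 in controls. For all probe sets the median was -0.01 in the lesion arrays and 0.04 in controls. Pou3f1, Bcl11b and Ldb2 were not left out of the 45.

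**Figure D2:**
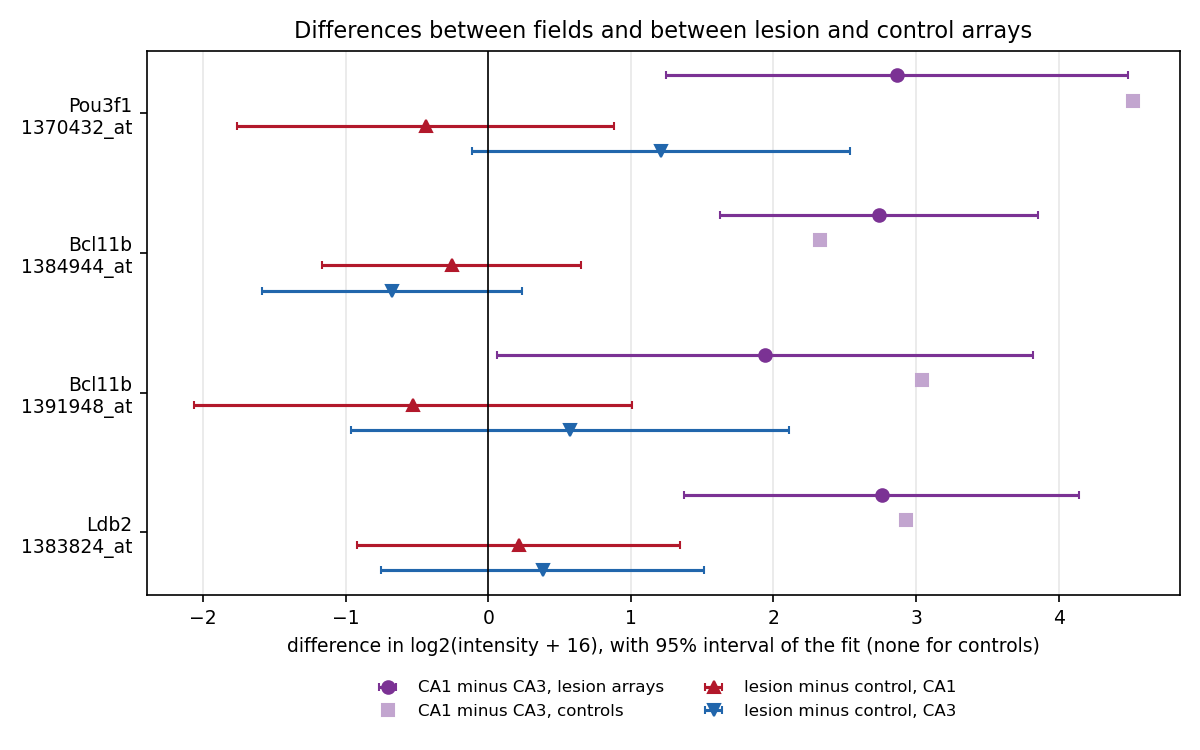
Differences in log2(intensity + 16) for the 4 tested probe sets, CA1 minus CA3 in lesion arrays and in controls, and lesion minus control within CA1 and within CA3. Bars are unadjusted 95% intervals of the fit, which the control differences lack because they chose the genes. The lesion effects have intervals that include 0.

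Within each field, no lesion effect on these genes passed. The lesion contrasts share their control arrays with the choice of the genes, which were high in CA1 controls and low in CA3 controls. In the mean of both fields the lesion effect was 0.39 ± 0.42 for Pou3f1, 0.30 ± 0.36 for Ldb2, -0.47 ± 0.29 for Bcl11b 1384944_at and 0.02 ± 0.49 for 1391948_at (log2, SE, limma adjusted p from 0.810 to 0.995). Limma called 0% of probe sets in this contrast, with 6.41% at an unadjusted p under 0.05. The intervals leave room for changes of over 2-fold for Pou3f1 (-0.55 to 1.32), Ldb2 (-0.50 to 1.10), Bcl11b 1384944_at (-1.11 to 0.18) and 1391948_at (-1.06 to 1.11).

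In CA1 the lesion array was near its controls. Pou3f1 and Bcl11b 1384944_at lay within the range of the 3 CA1 controls, while Bcl11b 1391948_at lay 0.06 log2 units below the lowest and Ldb2 0.003 above the highest. Such positions were common, since the CA1 lesion array lay below all CA1 controls for 24.8% of probe sets and above all of them for 21.2%. The effects were -0.44 ± 0.60 for Pou3f1, 0.21 ± 0.51 for Ldb2, -0.26 ± 0.41 for Bcl11b 1384944_at and -0.53 ± 0.69 for 1391948_at (log2, SE, limma adjusted p = 0.999 for each). The value for Pou3f1 rested on CA1 control 1, without which it was 0.063. Limma called 0% of probe sets, and 3.63% had an unadjusted p under 0.05.

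In CA3 the lesion effects had different signs, and none passed. Pou3f1 in the CA3 lesion array exceeded CA3 controls 1 to 3 by 1.36, 0.95 and 1.33 log2 units, an effect of 1.21 ± 0.60 (SE) or 2.32-fold. Bcl11b 1384944_at lay below each of the 3 CA3 controls, by -0.90, -1.04 and -0.09, an effect of -0.67 ± 0.41. The other tested Bcl11b probe set (0.57 ± 0.69) and Ldb2 (0.38 ± 0.51) lay within their controls, so the Bcl11b probe sets differed in sign. The CA3 lesion array lay above all CA3 controls for 29.7% of probe sets and below all of them for 24.8%. The limma adjusted p was 0.937 to 0.943 for the 4 probe sets, 0% of all probe sets were called, and 4.68% had an unadjusted p under 0.05.

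The order of the 4 group levels differed between the 4 tested probe sets only within a field. For Pou3f1 and Bcl11b 1391948_at it ran, from high to low, CA1 control, CA1 lesion, CA3 lesion and CA3 control. For Bcl11b 1384944_at the CA3 control came before the CA3 lesion array, and for Ldb2 the CA1 lesion array came before the CA1 control. Neighbours within a field did not differ past the threshold in any of these orders. The lesion effect in CA1 minus that in CA3 was -1.65 ± 0.84 for Pou3f1, -0.17 ± 0.72 for Ldb2, 0.42 ± 0.58 for Bcl11b 1384944_at and -1.10 ± 0.98 for 1391948_at (SE, limma adjusted p = 1.00 for each). Limma called 0% in this contrast, and 3.09% of probe sets had an unadjusted p under 0.05.

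Likeness to other genes was measured as the root mean square difference between profiles over the 8 arrays, each centred on its own mean, among 10843 other genes. Nearest to Pou3f1 were Mpped1, a metallophosphoesterase-domain gene (0.495 log2 units), Fibcd1, which encodes a membrane receptor for acetylated structures such as chitin (0.645), the adhesion receptor Adgrl2 (0.806), Ldb2 (0.823) and the myosin heavy chain Myh7 (0.841). Nearest to Bcl11b 1384944_at were the orphan receptor Gpr161 (0.309), the neuropeptide gene Cck (0.376), the inositol trisphosphate kinase gene Itpka (0.405), the vesicle release gene Cadps2 (0.417) and the serotonin receptor Htr5b (0.445). Nearest to Ldb2 were Htr5b (0.519), Gpr161 (0.523), Bcl11b 1384944_at (0.525), Rasl11b (0.528) and Cck (0.548). Ldb2 and Bcl11b 1384944_at were thus closer to each other than either was to Pou3f1, which lay 0.823 from Ldb2 and 1.07 from Bcl11b 1384944_at. The 8 arrays share the field contrast that chose the genes, so these distances are a description.

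**Figure D3:**
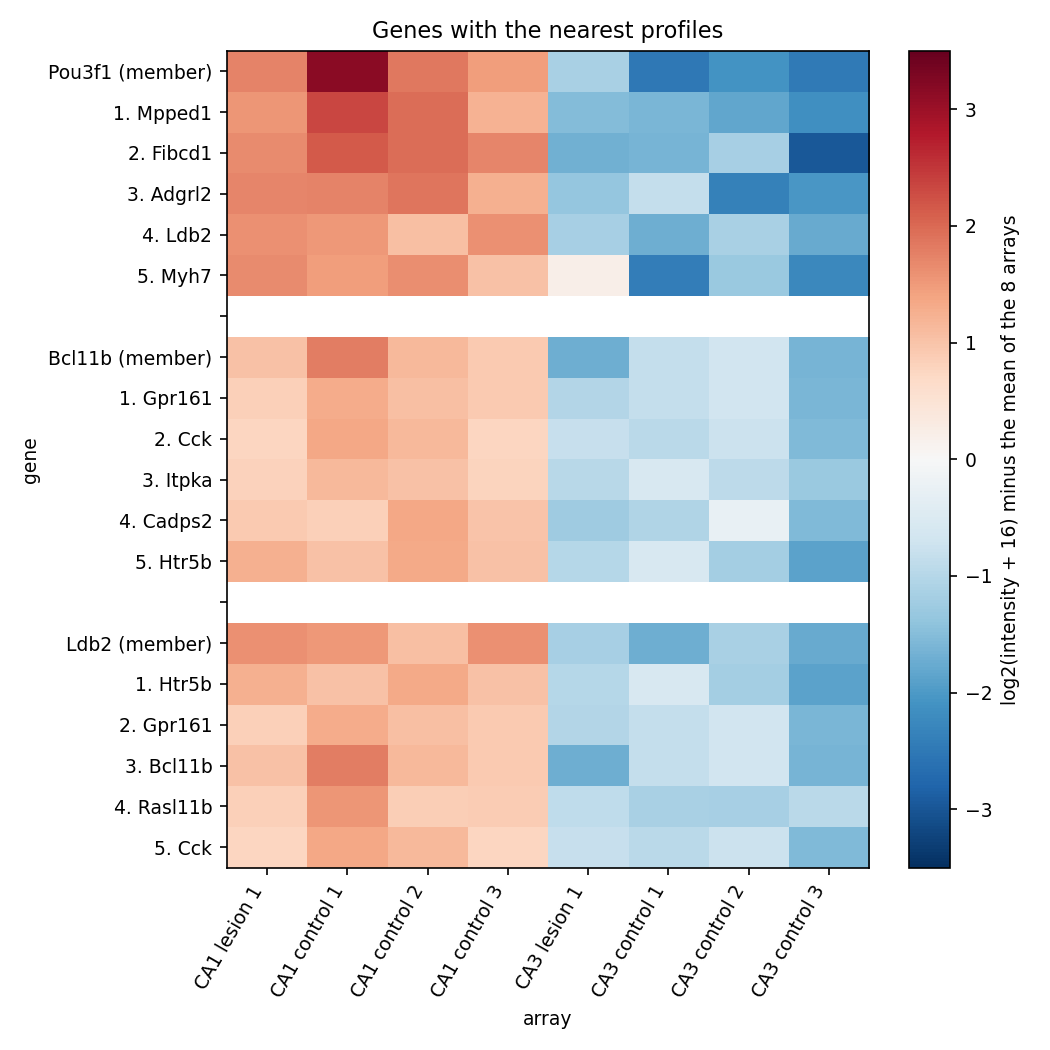
Profiles over the 8 arrays of Pou3f1, Bcl11b (1384944_at) and Ldb2, each above its 5 nearest genes, as log2(intensity + 16) minus the gene's mean over the arrays. All are high in the 4 CA1 arrays and low in CA3 arrays, except that Myh7 stands near its mean in the CA3 lesion array.

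None of the closest relatives of these genes passed between the control fields. Bcl11a, the paralogue of Bcl11b, averaged 12.77 ± 0.63 in CA1 controls and 12.71 ± 0.35 in CA3 controls (SD, n = 3 each), and Ldb1, the paralogue of Ldb2, 11.18 ± 0.31 and 10.94 ± 0.27 in the same order (limma adjusted p = 0.976 and 0.843). Pou3f3, another class III POU factor, averaged 12.99 ± 0.34 in CA1 controls and 12.86 ± 0.19 in CA3 controls (adjusted p = 0.896). Pou3f2 was under the filter but read 8.45 in the CA1 lesion array and 7.78, 8.07 and 6.93 in CA1 controls, against 6.60 in the CA3 lesion array and 5.68, 5.73 and 6.06 in CA3 controls. All CA1 arrays were thus above all CA3 arrays, and with no filter its control difference was 1.76 ± 0.83 (SE, limma adjusted p = 0.695). Pou3f4, also under the filter, averaged 5.89 in CA1 controls and 6.37 in CA3 controls.

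Of 13 other POU factors 9 were measured and 3 tested, and 0 passed in any contrast. The median control difference of the 3 tested, CA1 minus CA3, was 0.55, with Pou1f1 at 0.88, Pou6f1 at 0.55 and Pou3f3 at 0.14, against 0.04 for all probe sets. Among the 6 under the filter, wider differences than these were seen not only for Pou3f2 but also for Pou2f1, at 9.04 ± 0.97 in CA1 controls and 7.28 ± 1.46 in CA3 controls, and for Pou2f2, at 8.48 ± 0.26 in CA1 controls and 7.18 ± 1.18 in CA3 controls (SD, n = 3 each). Pou2f3 went the other way, averaging 7.35 in CA1 controls and 8.52 in CA3 controls. For Pou2f1, CA3 control 2 (8.81) was above CA1 control 1 (8.01). The lesion arrays read 6.73 in CA1 and 6.20 in CA3 for Pou2f1, and 9.16 in CA1 and 9.40 in CA3 for Pou2f2. Among factors that pattern cortical projection neurons, 8 of 12 were tested and 1 passed, Etv1, an ETS-family factor, which was 12.65 ± 0.18 in CA1 controls and 11.30 ± 0.15 in CA3 controls (log2, SD, n = 3 each). Its difference of 1.35 had a limma adjusted p of 0.0191 by the brightest probe set, and 3 further tested probe sets gave 0.81, 1.03 and 1.20 without passing. Etv1 was also higher in the CA1 lesion array, at 12.32, than in the CA3 lesion array, at 11.18 (adjusted p = 0.625). The median of these factors was 0.06, with the corepressor Tle4 at -0.52.

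Subunits of the complexes that Bcl11b is known to recruit or join showed small field differences. None of 12 tested members of the nucleosome remodelling and deacetylase complex passed in any contrast (median control difference 0.14, highest Chd3 at 0.59 and Gatad2b at 0.52). None of 12 tested members of the neuronal BAF complex, a chromatin remodeller, passed either (median 0.22, highest Smarcd3 at 0.73 and Arid1a at 0.68). Limma's lowest adjusted p in the control contrast was 0.556 for the first complex and 0.506 for the second.

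Of 21 possible partners of Ldb2 (LIM-homeodomain and LMO proteins, Ldb1 and single-stranded-DNA-binding cofactors), 15 were measured and 11 tested, and 0 passed in any contrast. The LIM-homeodomain gene Lhx2 averaged 13.26 ± 0.29 in CA1 controls and 13.39 ± 0.12 in CA3 controls. The LIM-only gene Lmo4 averaged 15.47 ± 0.15 in CA1 controls and 15.43 ± 0.16 in CA3 controls, and Lmo3 12.52 ± 0.49 in CA1 controls and 12.64 ± 0.40 in CA3 controls. Among the 11 tested, the widest differences were those of Lhx9 (-1.57, limma adjusted p = 0.376) and Lmo2 (-1.0, adjusted p = 0.631), both with lower values in CA1, and the median was -0.06. Under the filter, Lhx5 averaged 9.23 ± 0.43 in CA1 controls and 7.57 ± 0.84 in CA3 controls, and Lhx4 averaged 8.54 ± 0.49 in CA1 controls and 6.98 ± 0.97 in CA3 controls (SD, n = 3 each). For both, every CA1 control was above every CA3 control, as for 8.85% of the tested probe sets. The lesion arrays had the reverse order, with Lhx5 at 7.31 in CA1 and 9.09 in CA3, and Lhx4 at 5.46 in CA1 and 8.08 in CA3.

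Of 22 other hippocampal and pyramidal neuron transcription factors 20 were tested and 1 passed, Id2, an inhibitor of basic helix-loop-helix factors. Id2 averaged 13.22 ± 0.23 in CA1 controls and 12.14 ± 0.10 in CA3 controls, a difference of 1.08 (SD, n = 3 each, limma adjusted p = 0.0390), while its other probe set gave 0.82 (adjusted p = 0.851). The lesion arrays read 12.55 for CA1 and 11.97 for CA3 (adjusted p = 1.00). Zbtb20, a zinc-finger factor needed for hippocampal fate in mouse, averaged 11.10 ± 0.37 in CA1 controls and 10.72 ± 0.59 in CA3 controls. Its other tested probe sets had control differences of -0.88, 0.87 and 1.83. The nuclear receptor gene Rorb differed by -1.09, which rested largely on CA1 control 2. Rorb read 7.20 there, 9.91 and 9.70 in CA1 controls 1 and 3, and 9.80 to 10.23 in CA3 controls. Neither gene passed. The median of the 20 tested was 0.29.

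**Figure D4:**
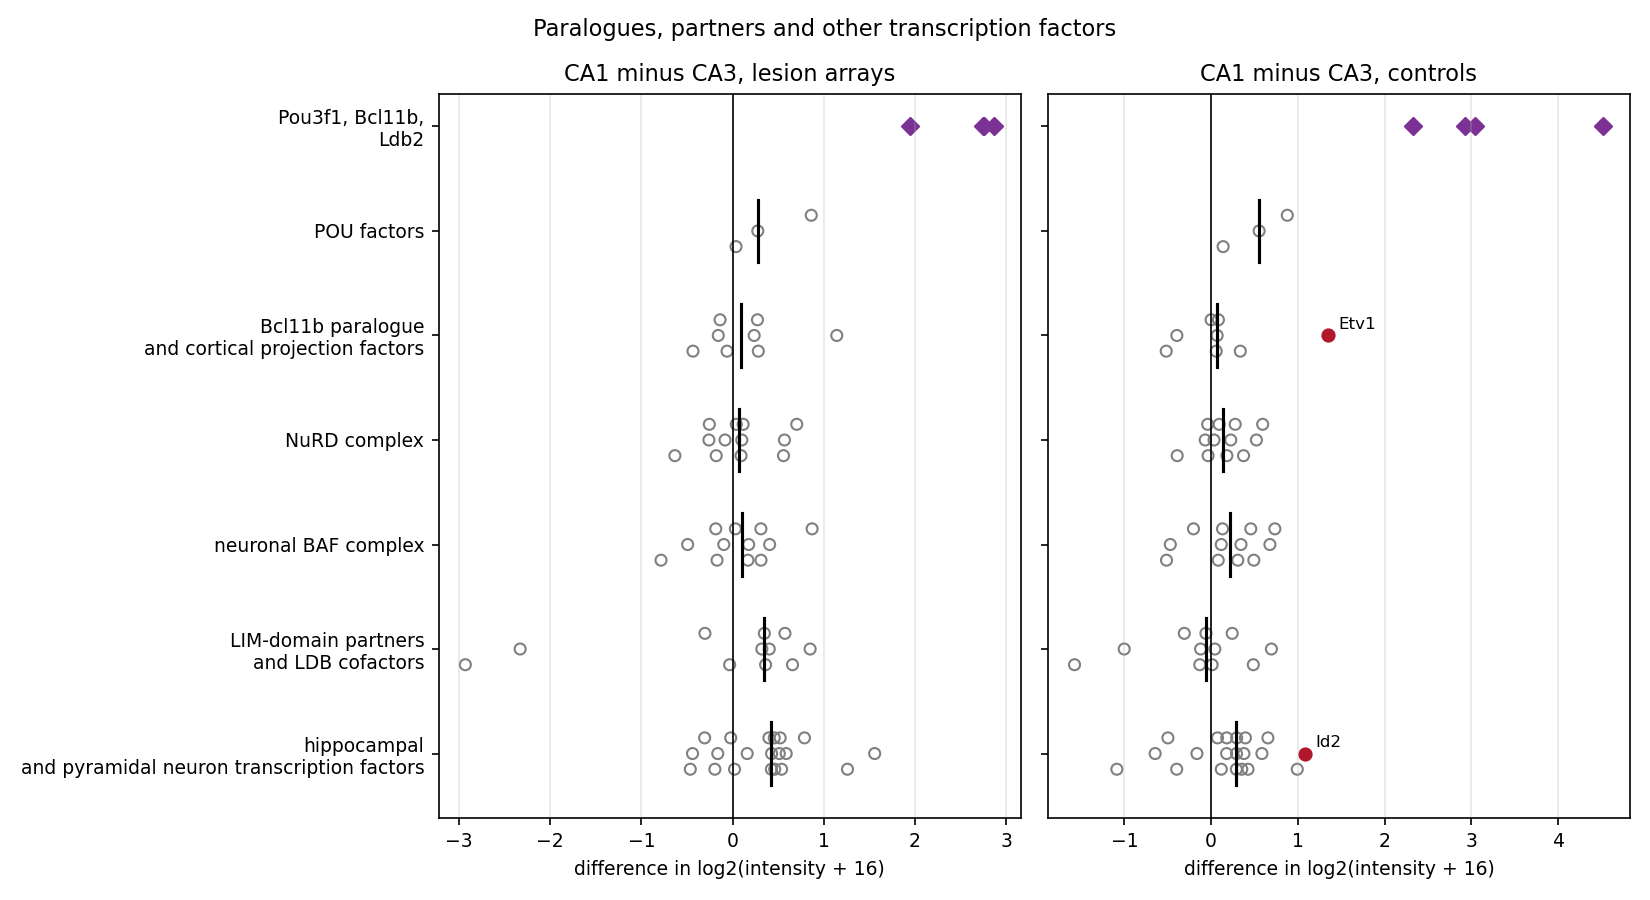
Differences between fields, CA1 minus CA3, in lesion arrays (left) and in controls (right), for Pou3f1, Bcl11b and Ldb2 (diamonds, description only in controls) and for the tested genes of the related lists, one circle a gene at its brightest probe set. Black bars are list medians, and filled red circles passed limma's adjusted threshold, which only Etv1 and Id2 did, in controls.

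Marker genes of the labelled fields came from lists chosen with earlier results of these data known, so they are no independent check on the labels. Of 7 CA1 markers 5 were tested and 3 passed, all higher in CA1 controls: Mpped1 (3.69), Fibcd1 (3.86) and Gpr161 (2.12). Wfs1 (2.29) and Man1a1 (0.37) were higher without passing. A second Gpr161 probe set gave 0.95 without passing (limma adjusted p = 0.638). A second Mpped1 probe set was under the filter, and its values overlapped between the control fields. Htr1a, under the filter, averaged 7.27 in CA1 controls and 7.51 in CA3 controls. The summed signal over the 6 measured CA1 markers was 65642 in the CA1 lesion array and 56195 to 105390 in CA1 controls, against 11773 in the CA3 lesion array and 7708 to 12112 in CA3 controls. Mpped1, the brightest of them (13.86 on average, log2), weighs most in that sum. Of 11 CA2 and CA3 markers 10 were tested and 1 passed, the adhesion gene Nectin3, lower in CA1 (-1.69). In total 7 of the 10 had lower values in CA1 controls, and Rgs14 (1.12), Coch (0.88) and Pcp4 (0.61) had higher ones. Their summed signal over 11 measured genes overlapped between the fields, at 90767 in the CA1 lesion array and 115776 to 192075 in CA1 controls, and 133300 in the CA3 lesion array and 129928 to 186147 in CA3 controls. That sum leans on Pcp4, the brightest of them, which averaged 16.27 in CA1 controls and 15.66 in CA3 controls (log2). The overlap of the sum thus does not describe the set. In the lesion arrays 9 of the 10 had lower values in CA1, with a median difference of -0.82. Of 12 pan-neuronal genes the neurofilament gene Nefl passed, also lower in CA1 (-1.13). The summed pan-neuronal signal was 262625 in the CA1 lesion array and 262876 to 368530 in CA1 controls, and 376959 in the CA3 lesion array and 384529 to 522901 in CA3 controls, so every CA1 array lay below every CA3 array. In such dissected tissue, fewer cells of a type and less RNA per cell cannot be told apart.

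Markers of other cell types were measured beside these genes, and their part in the field difference was not tested. For Bcl11b, 8 of 10 dentate granule cell markers were measured, none at 0, and their summed signal was 83577 in the CA1 lesion array and 52724 to 93723 in CA1 controls, against 68462 in the CA3 lesion array and 46683 to 61713 in CA3 controls. Of the 5 tested, Marcksl1 (0.92), Calb1 (0.32) and Prox1 (0.02) had higher values in CA1 controls, Stxbp6 (-0.10) and Trpc6 (-1.41) had lower ones, and 0 passed. Among CA1 controls the granule cell sum was lowest in control 1, where Bcl11b 1384944_at was highest and 1391948_at lowest. Calb1 and Marcksl1, the brightest of the measured markers (15.15 and 14.06 on average, log2), weigh most in that sum. For Ldb2, 10 of 11 endothelial and mural markers were measured, none at 0, but only 4 were above the filter on low values. Those 4 were dim, at 8.42 to 8.69 on average (log2). The sums over the 10 measured were 2635 in the CA1 lesion array and 2511 to 6244 in CA1 controls. They were 4726 in the CA3 lesion array and 1897 to 2428 in CA3 controls. Every CA1 control was thus above every CA3 control, though narrowly at 2511 against 2428. The CA3 lesion array was above 3 of the 4 CA1 arrays. All 4 tested markers had higher values in CA1 controls without passing (median 0.93). In the lesion arrays all 4 had lower values in CA1 (median -1.43), also without passing. Under the filter, Cldn5, Slco1a4 and Rgs5 averaged higher in CA1 controls than in CA3 controls, and Pecam1, Kdr and Vwf lower. Among CA1 controls the endothelial and mural sum was highest in control 2, where Ldb2 was lowest. For Pou3f1, 5 of 7 oligodendrocyte precursor markers were measured, none at 0, and their sum was 7885 in the CA1 lesion array and 5149 to 8849 in CA1 controls, against 11665 in the CA3 lesion array and 7192 to 10730 in CA3 controls, so the control ranges overlapped. The 3 tested, Pdgfra (-1.32), Sox10 (-0.36) and Olig1 (-0.27), all had lower values in CA1 controls, and 0 passed. Olig1, the brightest of them (12.10 on average, log2), weighs most in that sum. Of 9 tested interneuron markers 7 had higher values in CA1 controls and 0 passed (median 0.19), with the peptide gene Vip at 1.60 (limma adjusted p = 0.0574) and Sst at 0.76. The summed interneuron signal was 65329 in the CA1 lesion array and 117503, 97003 and 65627 in CA1 controls 1 to 3, against 50783 in the CA3 lesion array and 76996, 74495 and 59394 in CA3 controls 1 to 3. Pou3f1 and Bcl11b 1384944_at had the same order over the 3 CA1 controls as that sum, and Ldb2 and Bcl11b 1391948_at did not. That order was not particular to interneuron markers. The CA1 marker sum (105390, 83909 and 56195 in CA1 controls 1 to 3) and the pan-neuronal sum (368530, 328443 and 262876) had it too.

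Glial markers had higher values in the lesion arrays than in the control mean, without passing. In the mean lesion effect 10 of 10 tested microglia markers and 7 of 7 tested myelin markers were higher, with medians of 2.60 and 1.68, and 12 of 12 pan-neuronal genes were lower, with a median of -0.30, though 0 of each passed in limma. Summed microglia signal was 145818 in the CA1 lesion array and 7175, 17485 and 102482 in CA1 controls 1 to 3, and 103856 in the CA3 lesion array and 6938, 13029 and 85251 in CA3 controls 1 to 3. Summed myelin signal was 529683 in the CA1 lesion array and 58482, 274191 and 577686 in CA1 controls 1 to 3, and 569878 in the CA3 lesion array and 75996, 247683 and 401808 in CA3 controls 1 to 3. In both sums control 3 was the highest control of its field, and for myelin CA1 control 3 exceeded the CA1 lesion array. In CA1 control 1, where both sums were lowest, Pou3f1 and Bcl11b 1384944_at were highest among CA1 controls, Bcl11b 1391948_at was lowest and Ldb2 lay between the others. Without control 3 of both fields, the lesion effect of Pou3f1 was -0.78 in CA1 and 1.16 in CA3 (limma adjusted p = 0.850 and 0.549), and none of the 4 probe sets passed in either field. The part of glial content in the lesion effects was otherwise not tested.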

How the data were processed

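Total RNA of 8 dissected samples was measured on 1 array each. The authors deposited linear signal intensities per probe set; the software and scaling steps were not given in the sources used here. Gene names came from the platform annotation: 20832 probe sets had 1 symbol, 436 several and 9831 none, and all 5 member probe sets matched RefSeq genes (assembly GRCr8) by gene ID. After removal of 57 control probe sets, log2(intensity + 16) was taken, and the 18625 probe sets above the 40th percentile of mean log2 signal were tested with limma 3.58.1 in R 4.3.3 (1 coefficient per group over 8 arrays, 4 residual degrees of freedom, eBayes with an intensity trend, Benjamini-Hochberg adjustment, threshold 0.05). The number of arrays limits the precision. Tables were made with pandas 2.3.3. The fit was tested on simulated data.

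The members and gene lists were chosen with earlier results of these data known. Genes of a list entered with their brightest probe set. Named were all members, list genes past the threshold, the closest paralogues, Lhx2, Lmo3, Lmo4 and Zbtb20, the 2 largest control differences per pathway list, and the 5 nearest profiles. As alternatives, arrays were quantile normalised, the pseudocount was set to 1 or 64, and the filter was dropped or moved to the 60th percentile. Further ones were no intensity trend, a replicate block, arrays left out, cross-hybridising probe sets removed, the mean of a gene's probe sets, controls alone and an additive model.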

Additional observations from a re-analysis of the deposited data

Results flagged for a closer look

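The dim Bcl11b probe set 1378520_at, which lay under the filter and was not among the 18625 probe sets tested, read 7.49 on the log2 scale in the CA3 lesion array, above the 7.22, 6.02 and 6.02 of CA3 controls 1 to 3. The CA1 lesion array read 7.61, within its controls at 8.13, 6.06 and 5.99. In both fields the array numbered 1 was high among the controls, and the lesion effect in CA3 was 1.06 ± 1.29 with no filter (SE, limma adjusted p = 0.959).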

How the results depend on the processing

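The field difference in controls and in lesion arrays stayed positive for all 4 tested probe sets of Pou3f1, Bcl11b and Ldb2 under every alternative that gave a value; Ldb2 did not pass the 60th percentile filter. The adjusted p of the lesion-array difference ranged from 0.146 to 0.663 for Pou3f1, 0.198 to 0.714 for Ldb2, 0.0173 to 1.00 for Bcl11b 1384944_at and 0.339 to 1.00 for 1391948_at. With the replicate number as a block, Bcl11b 1384944_at (2.74) passed, at adjusted p = 0.0173. It also passed without control 3 of both fields (2.74, adjusted p = 0.0305), a choice made after seeing the data, as was leaving out control 1 of both. Using the mean of a gene's probe sets, which takes in the dim Bcl11b probe set, the Bcl11b control difference was 1.89, against 3.04 for 1391948_at alone.

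Deviations of same-numbered controls correlated at 0.155, 0.0601 and 0.306, and those of controls with different numbers at -0.204 to 0.0556. The labels do not say that a number marks a shared set, and whether it does was not tested. The main fit did not pair the arrays by number. Both lesion arrays are numbered 1, so their comparison with controls 2 and 3 also crosses numbers. The replicate block raised the calls to 39 in lesion arrays, 697 in the mean lesion effect, 258 in CA1, 310 in CA3 and 358 in controls. Without control 3 of both fields there were 6, 182, 3 and 6 calls in the first 4 of these. In the CA3 lesion effect 5 passed with quantile normalisation, 5 with a pseudocount of 1 and 5 without cross-hybridising probe sets. Control calls were 5 without control 1 of both fields, 40 with gene means and 0 without the intensity trend. With single arrays left out, calls ranged from 0 to 1 in lesion arrays, 0 to 1 in the mean lesion effect and 24 to 96 in controls. The cause was not tested.

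Small lesion effects changed sign. With gene means, the Bcl11b effect was 0.18 in the mean, 0.033 in CA1 and 0.32 in CA3, with a difference of -0.29. The mean effect of Bcl11b 1391948_at was -0.15 with quantile normalisation, -0.0084 with a pseudocount of 64 and -0.35 without control 1 of both fields. With arrays left out it ran from -0.53 to 0.57. These limits are the effects in CA1 alone and in CA3 alone, because without a lesion array only the other field remains. The CA1 effect of Bcl11b 1391948_at was 0.21 with the block. For Pou3f1 the mean effect was -0.041 with the block and -0.44 to 1.21 with arrays left out, limits that are again the effects in CA1 alone and in CA3 alone. The CA1 effect of Pou3f1 was -0.78 to 0.063 with arrays left out and 0.063 without control 1 of both fields. The difference of lesion effects for Ldb2 was 0.17 with quantile normalisation and 0.055 without control 3 of both fields. The cause was not tested.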

Other observations

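Some further probe sets of 2 LIM-only genes and of Bcl11a had wider lesion-array differences, CA1 minus CA3, than the brightest probe set of the same gene, which gave 0.32 for Lmo4, 0.85 for Lmo3 and 0.28 for Bcl11a. They were singled out after their values were seen, none passed in limma, and the differences between probe sets were not tested. Lmo4 1396470_at read 10.70 in the CA1 lesion array and 9.09, 8.89 and 10.27 in CA1 controls, against 7.14 in the CA3 lesion array and 9.92, 8.41 and 10.43 in CA3 controls. Its lesion-array difference was 3.56 ± 1.09 (SE, adjusted p = 0.625), while those of the other Lmo4 probe sets 1394630_at, 1379803_at and 1390379_at were 2.21, 1.89 and 0.19. Lmo3 1370430_at differed by 1.74 ± 0.55 (adjusted p = 0.655). Bcl11a 1383010_at read 8.38 in the CA1 lesion array and 8.53, 8.79 and 9.78 in CA1 controls, against 5.96 in the CA3 lesion array and 9.18, 8.84 and 8.52 in CA3 controls.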
